A study of Arabidopsis thaliana with 72 samples.

Results

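Glutathione transferases and the related dehydroascorbate reductases of Arabidopsis thaliana were followed in leaf RNA of 2 demes under high pH and bicarbonate. The list was taken by gene identifier and held 45 genes of the classes tau (GSTU), phi (GSTF), lambda (GSTL), zeta (GSTZ), theta (GSTT) and DHAR, with GSTU20 and GSTF9 to GSTF11 outside it. Of these, 35 were among the 18603 genes of the deposited table: 21 of 27 listed tau genes, 6 of 10 phi genes, all 3 lambda and all 3 DHAR genes, and the 1 zeta and 1 theta gene of the list. Genes of these classes outside the list were not followed. GSTU2, GSTU12, GSTU14, GSTU21, GSTU22, GSTU25, GSTF3, GSTF5, GSTF13 and GSTF14 were not analysed here.

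The demes are natural local populations, A1(c+) tolerant and T6(c-) sensitive to soil carbonate, and neither carries a transgene or an induced mutation. Plants were grown in hydroponics with dilute Hoagland solution at pH 5.9 and, when 15 days old, were kept at pH 5.9 (control), moved to pH 8.3 (high pH, held by the organic buffers MES and BTP) or moved to 10 mM NaHCO3 at pH 8.3 in the same buffers (bic). Leaves were sampled 3 h or 48 h later, which gave 12 groups. Each group had 2 biological replicates, and each of these had 3 technical replicates that the authors combined into 1 column, so that 72 libraries became 24 columns. The methods speak of pools of 12 plants for each line and treatment, and whether the replicates of a group came from separate plants is not clear, so p-values measure the spread between these columns. In bulk leaf RNA, fewer cells of a type and less RNA per cell cannot be told apart.

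Glutathione transferases join the tripeptide glutathione to reactive or foreign molecules, which are then carried into the vacuole and degraded. Tau and phi enzymes are the large plant-specific classes and many of their genes are known to respond to herbicides, pathogens, oxylipins and oxidative stress. Lambda enzymes and dehydroascorbate reductases have a cysteine in the active site and work as thiol transferases or regenerate ascorbate, the zeta enzyme isomerises maleylacetoacetate in tyrosine breakdown, and the theta enzyme has glutathione peroxidase activity.

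Read totals were 63505649 to 120579681 per column (median 99675927). All deposited genes passed 1 CPM (count per 1000000 reads of the column) in at least 6 columns, and GSTU6 passed this limit only with the help of the T6(c-) bic 48 h columns, so its change there was in part a condition for being measured. The deme of 3 columns was in doubt from earlier results of these data, and all columns were compared over genes whose levels separated the demes by at least 3 log2 units elsewhere. The library labelled replicate 2 of A1(c+) bic 3 h lay nearer T6(c-) in 60 of 82 genes. The library labelled T6(c-) pH 8.3 48 h replicate 1 lay nearer A1(c+) in 21 of 82, and the library labelled A1(c+) pH 8.3 48 h replicate 1 nearer T6(c-) in 3 of 82. By the same measure T6(c-) bic 48 h replicate 1 lay nearer A1(c+) in 10 of 105 genes, a larger share than in the last of these 3, so the measure alone does not single them out. That column was kept, and member counts without it are given for its comparisons. In the other columns at most 1 gene lay on the side of the other deme. The pH 5.9 replicates of T6(c-) had a median difference of 0.0379 log2 units (3 h) and 0.0509 (48 h), and the other 10 groups ranged from 0.103 to 0.492. The T6(c-) pH 5.9 columns were counted as replicates because they differed by more than read counting noise. An index of this spread, which is 1 for counting noise alone, was 1.65 for their 3 h pair and 2.04 for their 48 h pair. The lowest index of any remaining group was 9.62, found in T6(c-) after 3 h at pH 8.3. A value above 1 does not show that columns came from separate plants. The index therefore cannot tell whether these pairs are biological or technical replicates. The fit takes the variance of each gene from all 12 groups together. The p-values of all comparisons, in both demes, therefore rest in part on the small spread of these T6(c-) columns.

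The most abundant transcripts of the family came from a few genes. On the scale of CPM per kb of coding sequence, averaged over the 24 columns, the tau class summed to 1967, which was 44.9% of the family, and the phi class to 1130 (25.8%). The DHAR class summed to 676 (15.4%) and the lambda class to 450 (10.3%), while GSTT1 was at 91.3 and GSTZ1 at 63.3. Within the tau class the level ran from 0.867 in GSTU6 to 628 in GSTU19, a major tau enzyme of Arabidopsis, followed by GSTU5 at 543 and GSTU17 at 432. GSTF2, a phi protein known to bind small heterocyclic ligands, had 611 CPM per kb, DHAR1, a cytosolic dehydroascorbate reductase, had 459, and GSTL3 had 375. Coding sequences were at least 85% identical in GSTF2 and GSTF3 (94.5%), GSTF6 and GSTF7 (94.3%) and GSTU1 and GSTU2 (85.5%), and reads of these pairs could have been split between the copies.

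The highest summed level of the family was found in T6(c-) after 48 h of bic. Its replicates summed to 6816 and 10652 CPM per kb, against 5083 and 5141 at pH 5.9 and 3227 and 3961 at pH 8.3 in the same deme and time. These sums were not rescaled, and the median of all genes was 0.30 log2 units higher under bic than at pH 5.9 in these columns. The part of that shift in the lead of the bic sums was not tested. The phi class made up most of the gap between the replicates, with 1850 and 5235 CPM per kb, and GSTF2 alone stood at 542 and 2061 CPM. In A1(c+) at 48 h the family sums lay between 3646 and 4892 CPM per kb in all 6 columns, with bic at 4307 and 4892. The sums at 3 h lay between 3120 and 4389 in both demes.

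**Figure D1:**
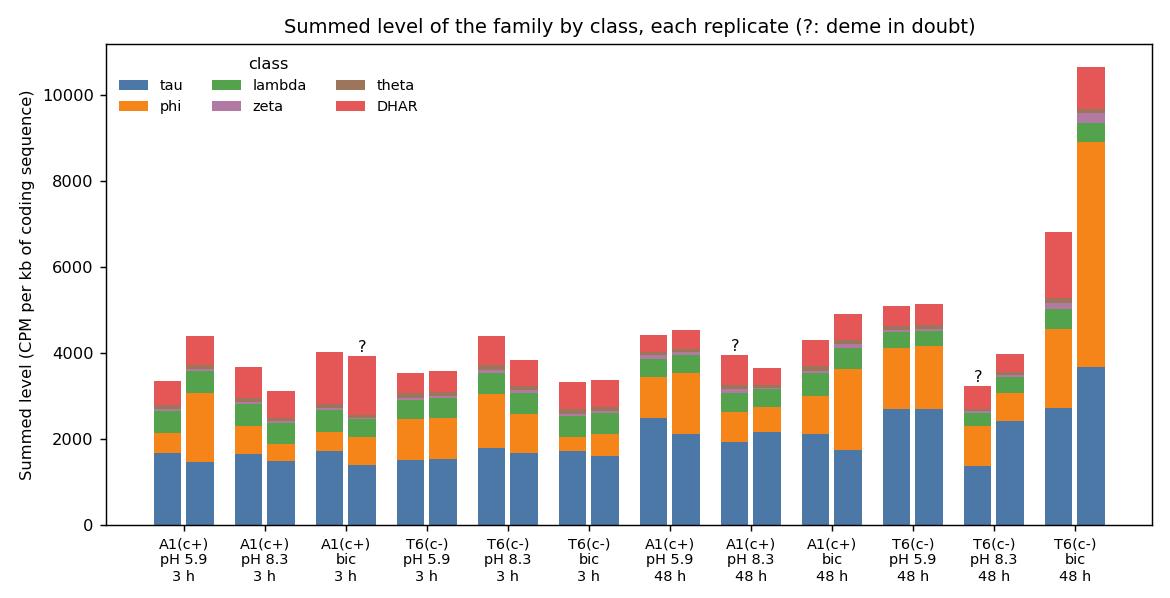
Summed level of the 35 genes in each of the 24 replicates, in CPM per kb of coding sequence (bars start at 0), coloured by class, with 2 bars per group; a question mark stands over the 3 columns whose deme is in doubt. The 2 bars of T6(c-) bic 48 h, at 6816 and 10652, are above all others, and their orange phi part differs between the replicates.

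The question behind the comparison of bic with pH 5.9 at 48 h is how the sensitive and the tolerant deme respond to bicarbonate over a longer exposure. In T6(c-), 13 of 35 members were called (limma, adjusted p under 0.05 and log2 fold change beyond 1), 12 higher and 1 lower. The 12 include GSTU6, which passed the 1 CPM limit of the deposited genes only with the help of these bic columns. Over all genes 18.9% were called in this comparison, 13.8% higher and 5.14% lower. The median log2 fold change of the members was 1.28, against 0.30 for all genes, and 29 of 35 were positive. Scaling with median-of-ratios size factors moved the median of all genes to 0.01 and that of the members to 0.99, and left 8 members called, 7 of them higher. By class, 7 tau genes, 2 phi genes, GSTL1, GSTZ1 and DHAR1 rose and 1 tau gene fell, while GSTT1 was not called.

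Among the tau genes, GSTU9 (AT5G62480) rose to nearly the same level in both bic replicates. It stood at 2.23 and 1.76 CPM at pH 5.9, at 1.43 and 0.961 at pH 8.3 and at 36.1 and 38.3 in bic (log2 fold change against pH 5.9 of 4.23, SE 1.04, limma adjusted p 0.00488). In A1(c+) it had 7.62 and 5.7 CPM at pH 5.9 against 9.16 and 11.9 with bic, so both T6(c-) bic columns lay above every A1(c+) column, the highest of which was the 13.7 CPM of the library labelled pH 8.3 48 h replicate 1. GSTU16 (AT1G59700) went from 15.5 and 16.9 CPM at pH 5.9 to 70.8 and 73.4 in bic (log2 fold change 2.15, SE 0.42, limma adjusted p 0.00103). GSTU9 and GSTU16 were called in each of the 24 fits that left out 1 column, as were GSTZ1 and DHAR1.

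GSTU19 (AT1G78380) went from 294 and 302 CPM at pH 5.9 to 489 and 864 in bic (log2 fold change 1.13, SE 0.21, limma adjusted p 0.000763). Of the 7 tau genes that rose, this most abundant one had the smallest log2 fold change. GSTU4 (AT2G29460) rose from 13.2 and 13.5 CPM to 64.9 and 165, a log2 fold change of 2.96 (SE 1.11, limma adjusted p 0.0441). The bic replicates of GSTU4 and GSTU19 did not overlap with those at pH 5.9, as in 30 of 35 members and 83.6% of all genes, but replicate 2 was far above replicate 1 in both genes.

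GSTU6 (AT2G29440), the lowest tau gene, had 0.0602 and 0.0643 CPM (6 reads in each column) at pH 5.9 and 1.24 and 2.48 CPM (116 and 256 reads) in bic (log2 fold change 4.71, SE 1.22, limma adjusted p 0.00682). With so few reads at pH 5.9 the size depends on the reads added, and it was 3.52 with 0.1 CPM added and 1.39 with 1 CPM added, called in both. Smaller changes on the log2 scale were found in GSTU10 (1.61, SE 0.50, limma adjusted p 0.0183) and GSTU15 (1.61, SE 0.58, limma adjusted p 0.0367). GSTU23 (AT1G78320) was the single member that fell, from 2.53 and 2.21 CPM to 0.717 and 0.921 (log2 fold change -1.53, SE 0.51, limma adjusted p 0.0259). None of the other 13 tau genes was called. GSTU3 had 4.04 and 4.02 CPM at pH 5.9 against 27.1 and 121 in bic, yet its log2 fold change of 3.83 had an adjusted p of 0.129 (limma), and GSTU11 (2.41) and GSTU24 (2.11) also missed the threshold.

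In the phi class, GSTF12 (TT19, AT5G17220), which is needed for the transport of anthocyanins and proanthocyanidins to the vacuole, rose in both replicates alike. It had 18.2 and 17.7 CPM at pH 5.9, then 3.45 and 10.7 at pH 8.3 and 150 and 109 in bic (log2 fold change against pH 5.9 of 2.83, SE 0.83, limma adjusted p 0.0134). GSTF4 (AT1G02950) was also called, at a low level of 0.792 and 0.74 CPM at pH 5.9 against 2.0 and 1.74 in bic (log2 fold change 1.28, SE 0.44, limma adjusted p 0.0311). GSTF6, which acts in camalexin synthesis, had 82.0 and 88.4 CPM at pH 5.9 against 161 and 487 in bic, and GSTF7, its near copy, had 71.7 and 76.5 against 103 and 393. Neither gene was called, with log2 fold changes of 1.72 and 1.44, and their bic replicates were 1.60 and 1.93 log2 units apart.

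Outside the tau and phi classes the called genes were 1 per class. DHAR1 (AT1G19570) had 164 and 174 CPM at pH 5.9, 206 and 116 at pH 8.3 and 882 and 514 in bic (log2 fold change 1.99, SE 0.40, limma adjusted p 0.0014). GSTZ1 (AT2G02390), the maleylacetoacetate isomerase, went from 34.3 and 33.3 CPM at pH 5.9 to 96.0 and 155 in bic (log2 fold change 1.85, SE 0.38, limma adjusted p 0.00141). GSTL1 (AT5G02780) had 1.06 and 1.16 CPM at pH 5.9 against 4.63 and 16.1 in bic (log2 fold change 2.95, SE 1.05, limma adjusted p 0.0361). In the same classes, GSTL2 had a log2 fold change of -0.58 and DHAR3 of -0.55, short of the fold change limit (limma adjusted p 0.00332 and 0.00166).

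Replicate 2 of T6(c-) bic 48 h was the higher one in 24 of 35 members. Without it 5 members were called, and without replicate 1, 8 were. Without either of the pH 5.9 replicates of T6(c-) at 48 h, 6 members were called. With a mean of at least 10 CPM required, 6 were called, since 7 of the 13 called genes lie below that level. Leaving out the 3 columns in doubt gave 15, adding GSTU26 (1.55) and GSTU17 (-1.07).

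**Figure D2:**
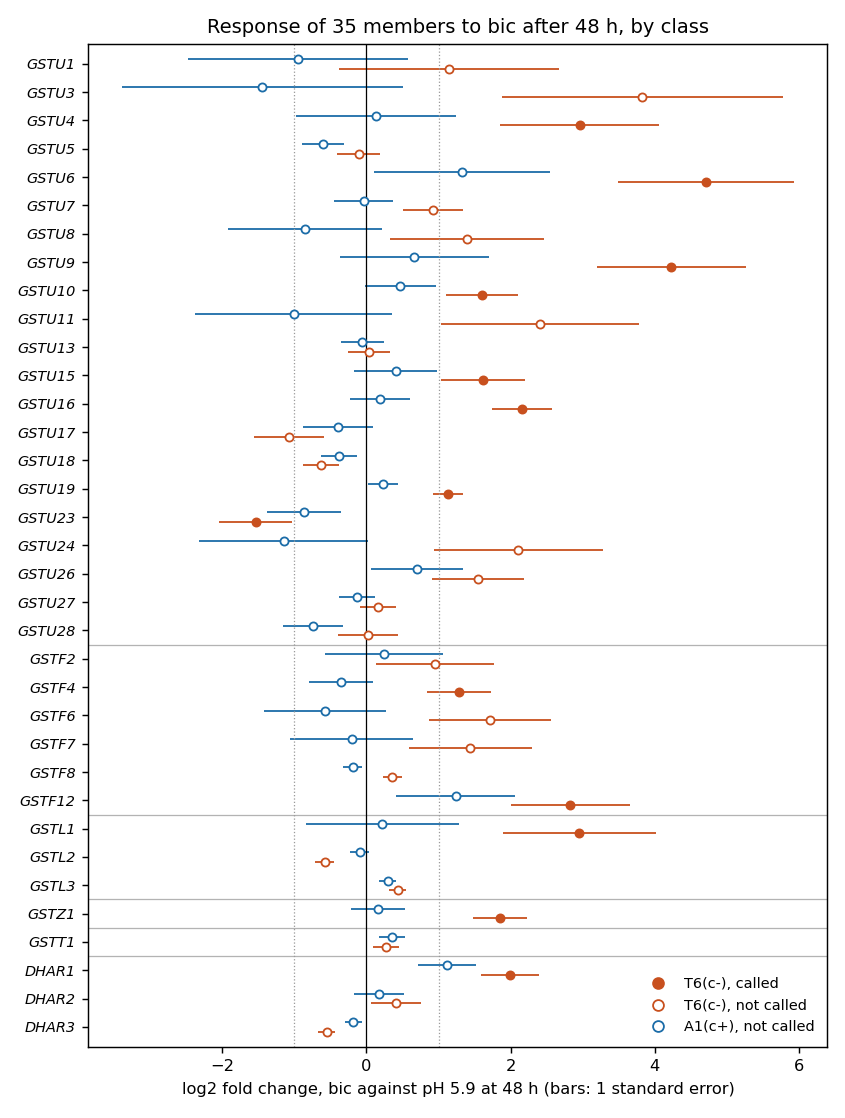
Log2 fold change of bic against pH 5.9 at 48 h for each of the 35 genes (points, with bars of 1 standard error from limma), grouped by class from tau at the top to DHAR at the bottom, in T6(c-) (orange) and A1(c+) (blue); dotted lines mark the fold change limit of 1 and filled points the called genes. The 13 filled points all belong to T6(c-), from -1.53 in GSTU23 to 4.23 in GSTU9 and 4.71 in GSTU6, the last resting on 6 reads per column at pH 5.9, and no A1(c+) gene was called.

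Neighbouring genes of the family did not all take part. Members that lie within 10 kb of each other form 9 arrays in the TAIR10.1 annotation. The largest, GSTU7 to GSTU1 on chromosome 2 (chr2:12617936-12632538, minus strand, 7 genes), had 6 genes in the table, of which GSTU4 and GSTU6 were called. Of these, GSTU6 was in the table only with the help of the bic columns. GSTU5, the most abundant gene of that array and known as auxin-inducible, had 694 and 681 CPM at pH 5.9 against 580 and 700 in bic. Both genes of the pair GSTU15 and GSTU16 on chromosome 1 (chr1:21930010-21938001) were called, as were the outer genes GSTU23 and GSTU19 of an array of 4 (chr1:29467412-29488007), which moved in opposite directions. GSTL1 was called next to GSTL3 (chr5:630748-635240), which had a log2 fold change of 0.43.

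TGACG is the core of the sites bound by TGA class bZIP factors, which are known to act on several glutathione transferase promoters, so the 250 bases before each annotated start were searched for it on both strands (overlapping matches, as in TGACGTCA, counted apart). It was present in 12 of 35 members (34.3%), against 19.5% of the 18534 genes of the table with such a window. Of the 12 members called higher in T6(c-) after 48 h of bic, 3 held it (25%), GSTU6, GSTU9 and DHAR1, and of the other 23 members 9 did (39.1%). GSTU6 was among the deposited genes only with the help of the bic columns. A pair of matches within 20 bases was found in 2 members, GSTU1 and GSTU7, neither of them called against pH 5.9 (5.71% of members and 1.34% of all genes). The windows of the 3 called genes with a match and of GSTU7 set genes called and not called against pH 5.9 side by side. They are shown with the matched letters in capitals and read 5′ to 3′ towards the gene, all from the minus strand of TAIR10.1. They are, in order, chr5:25089627-25089876, chr2:12621232-12621481, chr1:6774524-6774773 and chr2:12618900-12619149.
GSTU9: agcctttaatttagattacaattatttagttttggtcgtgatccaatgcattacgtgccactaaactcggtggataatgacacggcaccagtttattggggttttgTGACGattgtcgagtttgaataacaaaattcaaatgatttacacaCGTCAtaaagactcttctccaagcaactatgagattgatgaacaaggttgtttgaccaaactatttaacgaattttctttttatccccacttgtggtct
GSTU6: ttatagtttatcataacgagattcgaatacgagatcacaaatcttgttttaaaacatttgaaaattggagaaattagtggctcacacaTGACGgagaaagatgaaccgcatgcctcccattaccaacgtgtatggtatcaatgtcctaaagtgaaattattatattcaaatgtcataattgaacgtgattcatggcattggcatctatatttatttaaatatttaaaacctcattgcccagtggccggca
DHAR1: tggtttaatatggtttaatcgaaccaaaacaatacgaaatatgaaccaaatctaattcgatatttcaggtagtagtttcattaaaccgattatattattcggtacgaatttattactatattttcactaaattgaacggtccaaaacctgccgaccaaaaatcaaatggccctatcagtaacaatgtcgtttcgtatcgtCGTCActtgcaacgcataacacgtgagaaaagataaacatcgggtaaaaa
GSTU7: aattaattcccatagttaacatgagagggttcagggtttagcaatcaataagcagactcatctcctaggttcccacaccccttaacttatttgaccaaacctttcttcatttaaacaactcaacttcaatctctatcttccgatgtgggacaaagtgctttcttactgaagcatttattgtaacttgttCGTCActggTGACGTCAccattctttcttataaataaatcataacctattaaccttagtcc
GSTU9 holds one match on each strand, and GSTU6 and DHAR1 hold a single match each. GSTU7 holds 3 matches close together, and its level was 19.8 and 19.0 CPM at pH 5.9 against 30.0 and 45.0 in bic (log2 fold change 0.92, limma adjusted p 0.0887). Against pH 8.3, with the same bic columns, GSTU7 was called (log2 fold change 1.61, limma adjusted p 0.00658). The window of GSTU1, called in neither comparison, is not shown. A match is only a string of letters, and no binding was measured.

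Set against pH 8.3 instead of pH 5.9, which holds the pH constant, bic gave 18 called members in T6(c-) at 48 h, all higher, against 20.4% of all genes called and 14.2% called higher. The 18 include GSTU6, which was among the deposited genes only with the help of these bic columns. The members' median log2 fold change was 1.75, against 0.25 for all genes. Of the 13 members called against pH 5.9, 11 were called here too, and both comparisons use the same bic columns. The genes called only against pH 8.3 were GSTU3, GSTU7, GSTU8, GSTU11, GSTU24, GSTF6 and GSTF7. At pH 8.3 they ranged from GSTF6, with 41.8 and 21.8 CPM, and GSTF7, with 36.1 and 26.0, through GSTU7, with 9.5 and 15.3, down to GSTU3, with 0.188 and 0.157 (18 and 10 reads). The lowest, GSTU11, had 0.0417 and 0 CPM (4 and 0 reads) against 4.97 and 12.6 CPM (465 and 1305 reads) under bic. The fitted log2 fold change of GSTU11, 8.69, therefore depends on the reads added before the logarithm and became 6.08 with 0.1 CPM added and 3.15 with 1 CPM added. Leaving out the columns in doubt, one of which is a pH 8.3 replicate of T6(c-), gave 19 and left the 18 in place, whereas a fit of these 2 groups alone gave 8. Without bic replicate 1, 18 members were called, 17 of them the same, without replicate 2, 10 were, and 10 were called in every fit that left out 1 column: GSTU3, GSTU4, GSTU6, GSTU9, GSTU10, GSTU11, GSTU16, GSTF12, GSTZ1 and DHAR1.

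**Figure D3:**
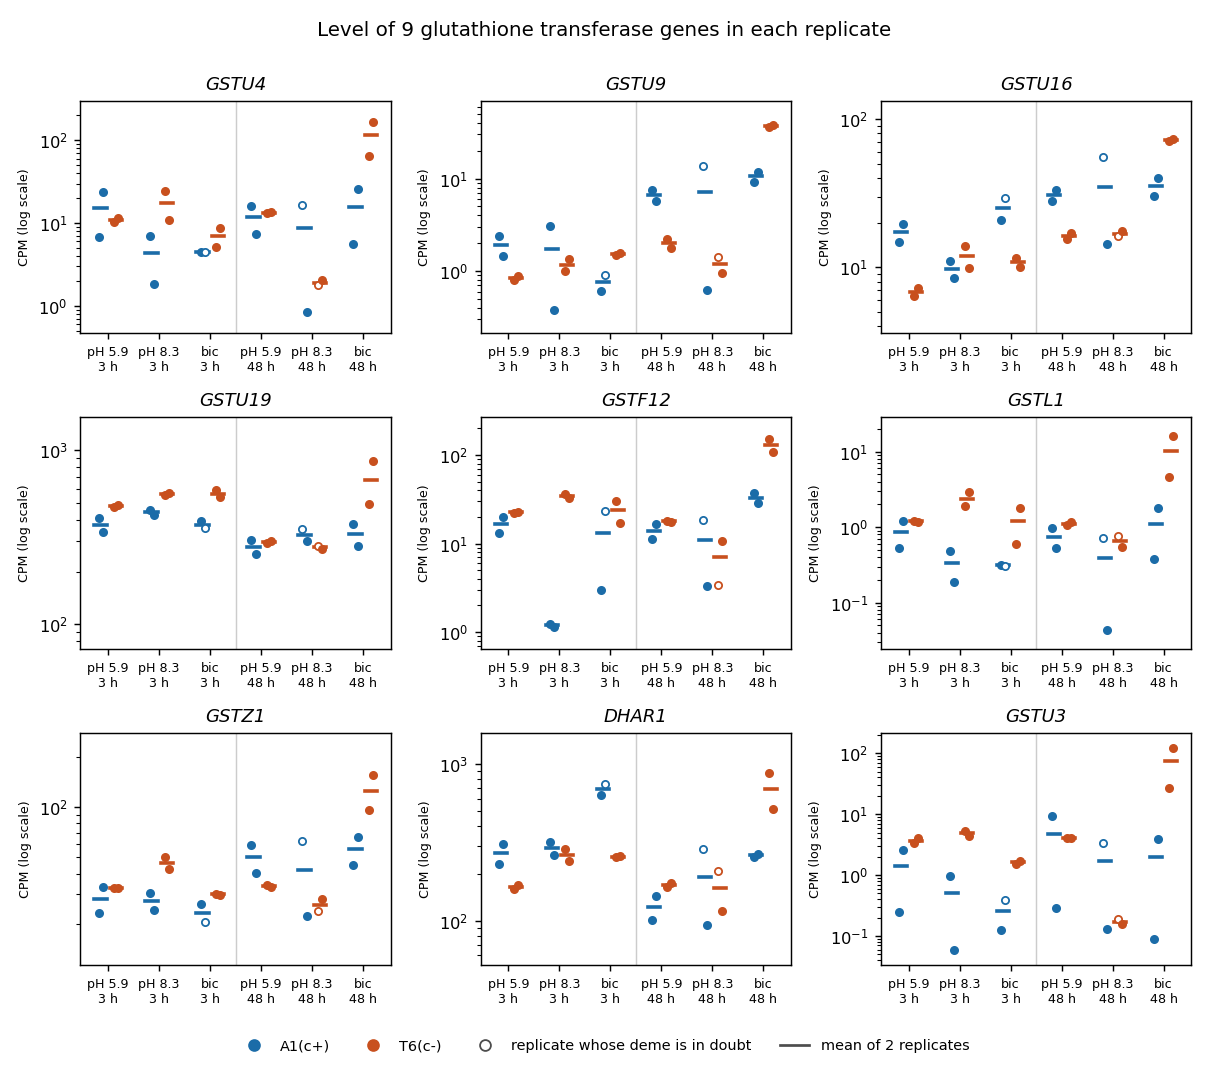
Level of 9 members in each replicate on a log axis of CPM, by treatment and time, with A1(c+) in blue, T6(c-) in orange, open points for the 3 columns whose deme is in doubt and lines for the mean of 2 replicates. In GSTU9, GSTU16 and GSTF12 the T6(c-) bic 48 h replicates lie close together (36.1 and 38.3 CPM in GSTU9), while in GSTU3 they lie apart (27.1 and 121 CPM).

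In A1(c+) no member was called after 48 h of bic (limma, 2 members at an unadjusted p under 0.05), with 0.333% of all genes called. The members' median log2 fold change was -0.05, against 0.18 for all genes, and 19 of 35 were negative. DHAR1 had 100 and 144 CPM at pH 5.9 against 256 and 266 in bic (log2 fold change 1.12, SE 0.40, limma adjusted p 0.157). GSTF12 had 11.4 and 16.7 CPM at pH 5.9 against 36.9 and 28.9 in bic (log2 fold change 1.24, SE 0.83). For both genes the replicates of bic lay above those of pH 5.9 without overlap, and 12 of 35 members and 51.6% of all genes had no overlap either way. Both were called when the 3 columns in doubt were left out (limma adjusted p 0.0133 and 0.0175), although none of these columns belongs to the groups compared. DHAR1 was also called without either A1(c+) pH 8.3 48 h replicate alone. Since the fit takes the variance of each gene from all groups, columns outside the compared groups also move these p-values. Replicates of A1(c+) bic 48 h differed by more than 1 log2 unit in 14 members, among them GSTU3 with 0.0881 and 3.88 CPM and GSTF7 with 18.4 and 107.

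The difference between the demes in the response to bic at 48 h was tested as an interaction. No member passed both thresholds (limma, 8 members at an unadjusted p under 0.05), with 4.15% of all genes called. The members' median difference was 0.96 log2 units higher in T6(c-), against 0.10 for all genes. GSTU16 came closest, with a response 1.96 log2 units higher in T6(c-) (SE 0.59, limma adjusted p 0.0587), followed by GSTZ1 with 1.69 (SE 0.53, limma adjusted p 0.0685). That 13 members were called in T6(c-) and 0 in A1(c+) is therefore not by itself a difference between the demes. GSTU6, one of the 13, was among the deposited genes only with the help of the T6(c-) bic 48 h columns. A pass of GSTU6 in this test is therefore in part a condition for being measured. Without the 3 columns in doubt, GSTU6, GSTU9, GSTU16, GSTF12 and GSTZ1 passed, 3 members (GSTU9, GSTU16 and GSTZ1) passed without either one of the A1(c+) pH 8.3 48 h columns, GSTF4 without A1(c+) bic 48 h replicate 1, GSTU19 without T6(c-) bic 48 h replicate 1, and GSTU16 alone under median-of-ratios scaling.

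Under bic at 48 h, 10 members were higher in T6(c-) than in A1(c+) and 0 were lower, with 10.5% of all genes called and 7.69% called higher. They were GSTU3, GSTU8, GSTU10, GSTU11, GSTU26, GSTF4, GSTF6, GSTL1, GSTZ1 and DHAR1, with log2 differences from 1.16 in GSTZ1 to 6.55 in GSTU3. The median difference was 1.05 for the members and 0.17 for all genes. Only GSTU26 was called in every fit that left out 1 column. GSTU26 was also called higher in T6(c-) at pH 5.9, with group means at 48 h of 1.33 against 0.167 CPM. Its gap between the demes was therefore not particular to bic. With all columns its response to bic in T6(c-) at 48 h was not called (log2 fold change 1.55, limma adjusted p 0.0644). Without T6(c-) bic 48 h replicate 1, 9 members were called, without replicate 2, 1 was, without A1(c+) bic 48 h replicate 1, 3 were, without either T6(c-) pH 5.9 replicate of 3 h or 48 h, 5 were, and when only these 2 groups were fitted, 0 were. Without the library labelled A1(c+) pH 8.3 48 h replicate 1, or without replicate 2 of the same group, 15 were called.

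High pH without bicarbonate gave another picture. In T6(c-) after 48 h at pH 8.3, no member was called (limma, 4 at an unadjusted p under 0.05; 0.156% of all genes called), and 28 of 35 fitted changes were negative, with a median of -0.69 against 0.05 for all genes. GSTU11 had 1.32 and 1.68 CPM (132 and 157 reads) at pH 5.9 and 0.0417 and 0 CPM (4 and 0 reads) at pH 8.3 (limma adjusted p 0.0644). Its fitted log2 fold change is set by the reads added before the logarithm and was -3.74 with 0.1 CPM added and -1.29 with 1 CPM added. GSTU4 had 13.2 and 13.5 CPM at pH 5.9 and 1.78 and 2.03 at pH 8.3, with no overlap, as in 26 of 35 members and 50.9% of all genes (log2 fold change -2.80, limma adjusted p 0.247). For GSTU17, known from light and abscisic acid signalling, the library labelled T6(c-) pH 8.3 48 h replicate 1 had 160 CPM and replicate 2 had 603, against 612 and 609 at pH 5.9. GSTU11 was called without the columns in doubt, which leaves the column with 0 reads alone in its group, so that the size of the change depends on the reads added. It was also called without any one of the 48 h columns of A1(c+) at pH 8.3 or under bic. Without T6(c-) pH 8.3 48 h replicate 2, GSTU5, GSTU17 and DHAR2 were called.

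In A1(c+) after 48 h at pH 8.3 no member was called either (limma, 6 at an unadjusted p under 0.05; 1.03% of all genes called), and the median was -0.40 against 0.05. This group had the widest gap between replicates, with 21 of 35 members differing by more than 1 log2 unit. GSTU9 had 13.7 CPM in the library labelled replicate 1 and 0.618 in replicate 2, GSTU4 had 16.5 and 0.834, and GSTU16 had 55.3 and 14.4, against 7.62 and 5.7, 16.1 and 7.37, and 27.9 and 33.1 at pH 5.9. The library labelled replicate 1 was above replicate 2 in 26 members. Leaving out the columns in doubt kept replicate 2 as the only column of the group. GSTU1, GSTU9, GSTU15, GSTU16, GSTU24, GSTF12 and GSTL1 were called lower, from -4.64 in GSTU24 to -1.08 in GSTU16, in a fit that takes the lone column to vary like the other groups. GSTU1 is left out of that range because replicate 2 held 0 reads of it, and its fitted change depends on the reads added. Leaving out the library labelled replicate 1 alone gave GSTU1, and leaving out replicate 2 gave GSTU28 and DHAR1. Bic against pH 8.3 in A1(c+) at 48 h depended on the same column. It gave 1 called member with all columns, GSTU28 (log2 fold change -1.92, SE 0.42, limma adjusted p 0.0131; 4.59% of all genes called, 3.27% lower), 13 without the columns in doubt, of which 12 were higher and GSTU28 lower, and 11 without the library labelled A1(c+) pH 8.3 48 h replicate 1 alone. It gave 4 without A1(c+) bic 48 h replicate 1, 0 without replicate 2 and 2 without either bic 3 h column of A1(c+).

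After 3 h the family had hardly any called member. Under bic 0 members were called in T6(c-) and 0 in A1(c+) (limma, 3 in each at an unadjusted p under 0.05; 0% and 0.0161% of all genes called), with medians of -0.03 and -0.34 against -0.07 and -0.19 for all genes. DHAR1 in A1(c+) had 230 and 308 CPM at pH 5.9 against 632 and 750 in bic (log2 fold change 1.37, limma adjusted p 0.122). The replicates did not overlap, as in 13 of 35 members and 41.4% of all genes. In T6(c-) DHAR1 had 160 and 168 CPM against 255 and 259 (log2 fold change 0.65, limma adjusted p 0.705). There too the replicates did not overlap, as in 24 of 35 members and 72% of all genes. The library labelled replicate 2 of A1(c+) bic 3 h held the value of 750, and without the columns in doubt DHAR1 was called with a log2 fold change of 1.25 (limma adjusted p 0.0201), as it was without either A1(c+) pH 8.3 48 h column. Without replicate 1 of the bic group, GSTU26 was called. GSTF12 stood apart between those columns, with 2.96 CPM in replicate 1 and 23.6 in the library labelled replicate 2, against 13.2 and 19.9 in A1(c+) and 22.4 and 22.5 in T6(c-) at pH 5.9. The difference between the demes in the bic response at 3 h was called in 0 members (limma, 1 at an unadjusted p under 0.05; 0% of all genes called).

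At pH 8.3 for 3 h, A1(c+) had 2 called members, both lower, with 2.13% of all genes called and 1.9% called lower. GSTF12 fell from 13.2 and 19.9 CPM to 1.23 and 1.15 (log2 fold change -3.77, SE 0.82, limma adjusted p 0.0191), and GSTU28 (AT1G53680) fell from 2.76 and 2.59 to 0.658 and 0.651 (log2 fold change -2.02, SE 0.42, limma adjusted p 0.0149). In T6(c-), where 0 members were called (limma, 1 at an unadjusted p under 0.05; 0% of all genes), GSTF12 had 22.4 and 22.5 CPM at pH 5.9 and 36.7 and 32.6 at pH 8.3. Both calls were lost when any 1 of the 4 columns compared was left out (0 members), and the difference between the demes at pH 8.3 was not tested. In T6(c-) 28 of 35 changes were positive, with a median of 0.39 against -0.01 for all genes.

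At pH 5.9 the demes differed in few members, of which 3 were called at 3 h and 2 at 48 h, with 4.73% (2.31% higher and 2.42% lower in T6(c-)) and 7.65% (5.21% higher and 2.45% lower) of all genes called. GSTU26 (AT1G17190) was higher in T6(c-), with 3.06 and 2.8 CPM against 0.422 and 0.322 at 3 h and 1.16 and 1.49 against 0.124 and 0.211 at 48 h (log2 differences 2.97 and 2.99, both SE 0.64, limma adjusted p 0.0121 and 0.0102). The A1(c+) values rest on 13 to 48 reads at pH 5.9. The processing notes name the TAIR10 build for both demes. Whether sequence differences between the demes changed the assignment of reads, for this or any other member, was not tested. GSTU26 lay above 1 CPM in all 12 T6(c-) columns and below 0.5 CPM in 11 of the 12 A1(c+) columns, the exception being the library labelled replicate 2 of A1(c+) bic 3 h with 1.98 CPM. GSTU15 (AT1G59670) was lower in T6(c-), with 1.72 and 1.81 CPM against 6.53 and 8.31 at 3 h (log2 difference -2.06, SE 0.58, limma adjusted p 0.0379) and 2.21 and 2.43 against 8.33 and 11.7 at 48 h (-2.09, limma adjusted p 0.0291). GSTU18 (AT1G10360) was called lower in T6(c-) at 3 h, with 33.4 and 32.2 CPM against 79.8 and 89.1 (log2 difference -1.36, SE 0.25, limma adjusted p 0.0057). No member was called at 3 h without A1(c+) replicate 2 or without either T6(c-) replicate, and none at 48 h without A1(c+) replicate 1 or without either T6(c-) replicate (0 in each), while 1 was called at 48 h without A1(c+) replicate 2.

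Plants at 48 h were also older than those at 3 h, and age and harvest time cannot be told apart. In T6(c-) 5 members were higher at 48 h and 0 lower, with 9.22% of all genes called and 2.13% called higher, and in A1(c+) 1 was higher and 1 lower, with 15.1% called, 3.38% higher and 11.7% lower. GSTU5 (AT2G29450) was higher at 48 h in both demes, from 177 and 183 to 694 and 681 CPM in T6(c-) (log2 difference 1.93, SE 0.30, limma adjusted p 0.000507) and from 250 and 226 to 603 and 502 in A1(c+) (1.21, limma adjusted p 0.00725). GSTF8, a phi enzyme whose gene is a known marker of early stress responses, went from 104 and 101 to 238 and 243 CPM in T6(c-) (log2 difference 1.23, SE 0.13, limma adjusted p 5.22e-05). GSTU16, GSTU17 and GSTU18 were the other members higher in T6(c-), by 1.24, 1.61 and 1.21 log2 units. DHAR1 was lower at 48 h in A1(c+), with a log2 difference of -1.15 (limma adjusted p 0.0434), from 230 and 308 to 100 and 144 CPM. Without any one of the 4 columns compared in T6(c-) 3 members were called there (GSTU5, GSTU18 and GSTF8). In A1(c+) 0 were called without pH 5.9 3 h replicate 2 or pH 5.9 48 h replicate 1, and in most of the other fits that left out 1 column the call of DHAR1 was lost.

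**Figure D4:**
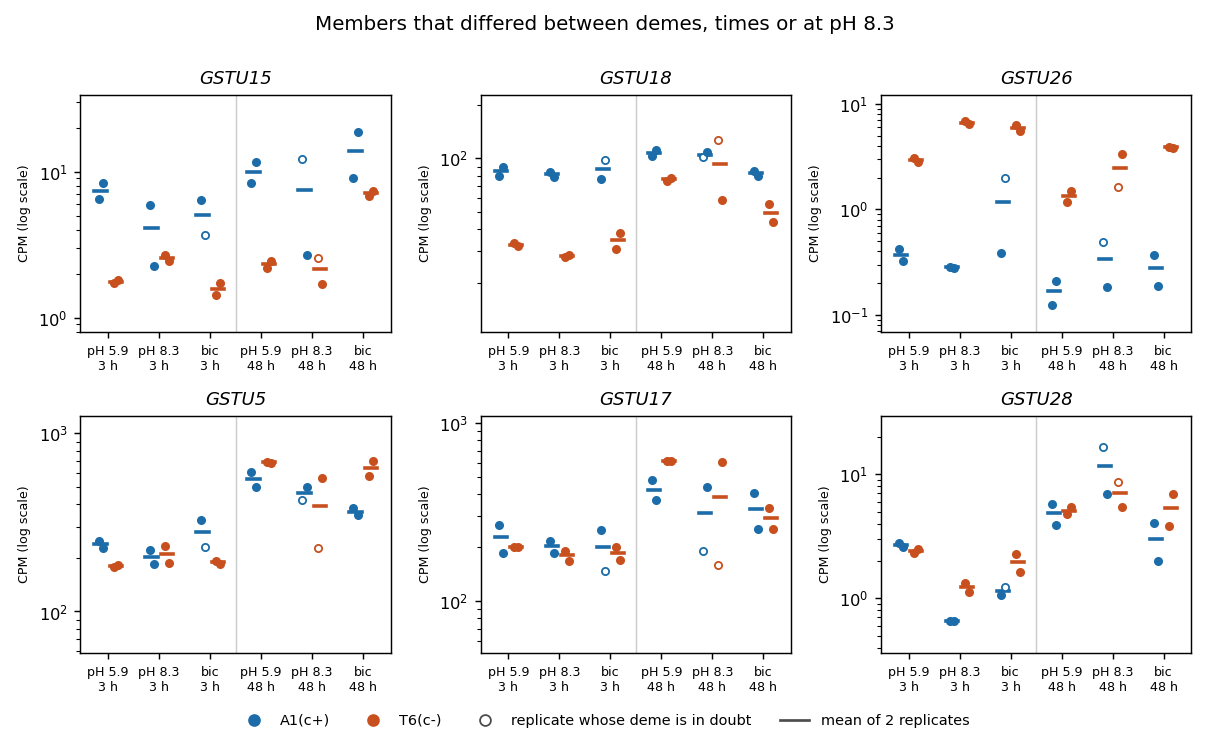
Level of 6 members in each replicate on a log axis of CPM, by treatment and time, with A1(c+) in blue, T6(c-) in orange, open points for the 3 columns whose deme is in doubt and lines for the mean of 2 replicates. GSTU26 separates the demes at both times (3.06 and 2.8 against 0.422 and 0.322 CPM at pH 5.9, 3 h), and GSTU5 is above 500 CPM in all 4 columns at pH 5.9, 48 h.

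Genes that work with glutathione transferases were counted in the same comparison, T6(c-) bic against pH 5.9 at 48 h. Of 10 genes of glutathione synthesis, reduction and peroxidation, 1 rose and 0 fell (all genes: 13.8% higher, 5.14% lower), with a median log2 fold change of 0.58 against 0.30 for all genes. It was GPX2, a glutathione peroxidase, from 105 and 104 to 212 and 275 CPM (log2 fold change 1.21, SE 0.20, limma adjusted p 0.000322). Short of the fold change limit, GPX1 had a log2 fold change of -0.97 (limma adjusted p 0.00081). GR1 (0.84) and GPX8 (0.68) also missed that limit (limma adjusted p 0.0249 and 0.035). Of 7 genes for the transport and breakdown of conjugates (median 0.84), 2 rose: GGT4, the vacuolar gamma-glutamyl transpeptidase, with 1.91 and GGP1, a cytosolic gamma-glutamyl peptidase, with 1.09. Of 12 genes of the response to xenobiotics and oxylipins (median 0.76), 4 rose, the oxophytodienoate reductase gene OPR2 (1.14), the glucosyltransferase gene UGT74E2 (3.83), the cytochrome P450 gene CYP81D8 (2.80) and the transporter gene DTX3 (2.63). None of the genes of these 3 lists was called in A1(c+) at 48 h of bic, where 0.333% of all genes were called. Even so, DTX3 had a larger log2 fold change there than in T6(c-), 3.04 (SE 0.74, limma adjusted p 0.0608). CYP81D8 had 1.62 in A1(c+) (limma adjusted p 0.142), OPR2 0.14 and UGT74E2 -0.36.

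Other markers moved in the same columns. The 6 leaf markers (small subunits of Rubisco, chlorophyll a/b binding proteins, PSBO1 and GLDP1) were all present and summed to 14145 and 18849 CPM in T6(c-) bic 48 h, against 56517 and 56652 at pH 5.9, and 5 of 6 fell, with GLDP1 the exception. In A1(c+) the sums were 27961 and 31697 under bic and 37460 and 47036 at pH 5.9, with 0 of 6 called. Of 6 root markers 2 were in the table, and they summed to 185 and 534 CPM in T6(c-) bic 48 h against 141 and 144 at pH 5.9, with 0 called in this comparison. The defining root genes CASP1, PIN2 and COBL9 were not among the genes analysed. Of 4 senescence markers 3 were in the table, and they summed to 527 and 1264 CPM against 138 and 145, with 0 called in this comparison and SAG12 not analysed here. In the other comparisons that use the same bic columns, some of these markers were called. Against pH 8.3, where 18 members were called, BGLU22 of the root list (3.63) and SAG13 (5.95) and NAC092 (4.87) of the senescence list were called higher in T6(c-), and the root and senescence sums at pH 8.3 were 49.2 to 58.2 and 31.8 to 65.4 CPM. Against A1(c+) under bic, where 10 members were called, both root markers, PYK10 (4.22) and BGLU22 (6.87), and NAC092 (3.02) were called higher in T6(c-), and the sums in A1(c+) were 11.4 to 23.2 and 40.0 to 412 CPM. The root sums already separated the demes at pH 5.9, with 141 to 144 CPM in T6(c-) against 3.34 to 29.8 in A1(c+) at 48 h. At 3 h they were 198 to 199 against 34.6 to 36.5 CPM. The senescence sums at pH 5.9, 48 h were 138 to 145 CPM in T6(c-) and 179 to 616 in A1(c+). The part of these shifts and deme differences in the values of the glutathione transferase genes was not tested.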

How the data were processed

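Leaf RNA libraries were sequenced by the authors as 150 bp paired-end reads without strand. The methods name TopHat (v2.0.12) with Bowtie (v2.2.3), and the submitters' processing notes name Salmon and the build TAIR10; which of these made the counts is not given in the sources used here. The values deposited by the authors are log2 CPM, scaled to each column's own total with 0.5 reads added, 1 column per biological replicate, and this form was read from the values, which give whole reads (within 0.05) in 100% of the low values.

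The 35 members were tested with limma 3.58.1 in R 4.3.3 (12 group means, mean-variance trend, two-sided, 12 residual and 2.54 prior degrees of freedom) over all 18603 genes, with Benjamini-Hochberg adjustment within each of 17 comparisons (called: adjusted p under 0.05 and log2 fold change beyond 1). With 2 columns in each of 2 groups the smallest exact permutation p is 0.333. Named genes were those called under bic at 48 h (at most 6 of each direction in each deme) or between demes at pH 5.9, the most abundant member of each class, and the members the study names; genes beyond this were added after their values were seen. Members and lists were chosen with earlier results of these data known. Coding lengths, arrays and upstream windows come from the RefSeq annotation of TAIR10.1 (Python 3.11.15, Biopython 1.88). Alternatives were other scalings, pseudocounts, a filter on low values, fits without the trend, with a replicate block or of the compared groups alone, and fits without single columns or the 3 in doubt. The chain was tested on simulated data.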

Additional observations from a re-analysis of the deposited data

Results flagged for a closer look

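Among the listed genes outside the family, 7 differed between the demes in their response to bic at 48 h by the interaction test in limma. GPX2, a glutathione peroxidase, responded 1.40 log2 units higher in T6(c-) than in A1(c+) (log2 fold changes 1.21 and -0.18, adjusted p 0.0128 from limma). GGT1, an apoplastic gamma-glutamyl transpeptidase, responded 1.50 units higher (0.78 and -0.72, adjusted p 0.0321 from limma), although it was called in neither deme alone. UGT74E2, a glucosyltransferase, responded 4.19 units higher (3.83 and -0.36, adjusted p 0.0339 from limma). The leaf markers RBCS3B (-1.56), CAB2 (-1.50), CAB1 (-1.79) and PSBO1 (-1.10) responded lower in T6(c-), with adjusted p from 0.0113 to 0.0192 (limma). None of the 35 members of the family followed here passed the same test.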

How the results depend on the processing

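With 2 replicates per group, the counts of called members depended on single columns and on the fit, and in a fit that left a group with 1 column that column was taken to vary like the others. Median-of-ratios size factors gave 8 called members for bic against pH 5.9 in T6(c-) at 48 h, 1 for the deme difference in the bic response at 48 h and 4 for 48 h against 3 h in A1(c+). Quantile normalization gave 1 for pH 8.3 in T6(c-) at 48 h, 1 for pH 8.3 in A1(c+) at 3 h, 1 for the deme difference and 4 for time in A1(c+), and turned GSTU23 under bic in A1(c+) at 3 h to 0.21 and GSTU26 over time in A1(c+) to 0.23; the cause was not tested. Adding 1 CPM gave 1 for pH 8.3 in A1(c+) at 3 h and 1 between demes at pH 5.9, 48 h. A mean of at least 10 CPM, which removes genes from the test, gave 6 for bic in T6(c-) at 48 h, 10 for bic against pH 8.3 there, 0 for bic against pH 8.3 in A1(c+), 1 for pH 8.3 in A1(c+) at 3 h, 1 for the deme difference, 0 and 1 between demes at pH 5.9 (48 h and 3 h) and 3 between demes under bic. No fold change limit gave 2 for bic against pH 8.3 in A1(c+) and 4 for time in A1(c+), where no trend gave 1. Fitting only the groups compared, which leaves fewer columns, gave 3 for bic and 1 for pH 8.3 in T6(c-) at 3 h, 8 and 0 for bic against pH 8.3 in T6(c-) and A1(c+), 4 for the deme difference, 4 and 8 between demes at pH 5.9 (48 h and 3 h), 0 between demes under bic, and 9 and 4 for time in T6(c-) and A1(c+). Leaving out the 3 columns in doubt gave 2 and 3 for bic in A1(c+) at 48 h and 3 h, 1 and 7 for pH 8.3 at 48 h in T6(c-) and A1(c+), 13 for bic against pH 8.3 in A1(c+), 5 for the deme difference, 7 between demes at pH 5.9, 3 h, 17 between demes under bic and 5 for time in A1(c+). With both that and size factors, an alternative chosen after seeing the data, these were 1, 2, 1, 7, 13, 5, 7, 14 and 9.

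Leaving out 1 column at a time (24 fits each) gave 5 to 14 called members for bic in T6(c-) at 48 h, 0 to 1 for bic in A1(c+) at either time, 0 to 3 and 0 to 2 for pH 8.3 at 48 h in T6(c-) and A1(c+), 0 to 2 for pH 8.3 in A1(c+) at 3 h, 10 to 19 and 0 to 11 for bic against pH 8.3 in T6(c-) and A1(c+), 0 to 3 for the deme difference, 0 to 2 and 0 to 4 between demes at pH 5.9 (48 h and 3 h), 1 to 15 between demes under bic, and 3 to 6 and 0 to 3 for time in T6(c-) and A1(c+). Of 56 called member results, 18 stayed called in every such fit. Directions that turned, as log2 fold change ranges, were under bic in A1(c+) at 3 h GSTU23 (-1.36 to 0.52) and GSTF12 (-2.45 to 0.54), at pH 8.3 in A1(c+) at 48 h GSTU9 (-3.40 to 1.05), GSTU15 (-1.88 to 0.32), GSTU16 (-1.08 to 0.86), GSTF12 (-2.06 to 0.44) and GSTL1 (-3.88 to 0.023), for bic against pH 8.3 in T6(c-) GSTU17 (-1.06 to 0.85), and for bic against pH 8.3 in A1(c+) GSTU4 (-0.46 to 3.83), GSTU9 (-0.39 to 4.07), GSTU16 (-0.67 to 1.28), GSTU24 (-0.68 to 3.49), GSTF6 (-0.052 to 2.56), GSTZ1 (-0.19 to 1.31) and DHAR1 (-0.15 to 1.48). The replicate numbers do not pair the columns, since same-numbered columns of 66 pairs of groups correlated from -0.42 to 0.44, with 11 over 0.1. The fit with the replicate block gave 12 called members for bic in T6(c-) at 48 h and 8 between demes under bic, and no count left the range of 1.5 times the count without it.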
